A study of Mus musculus with 29 samples.

Results

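The adipogenic lineage genes described here are 10 genes that mark the path from a mesenchymal cell to a fat cell, namely Pparg, Cebpa, Cd36, Lpl, Fabp4, Plin1, Plin4, Adipoq, Cfd and Car3. They were taken by their symbols, 10 of the 55401 gene entries counted in 29 RNA-seq libraries of mouse mesenchymal cells sorted from tissue at the common bile duct, and their levels were compared over 9 groups with a question in view: whether single libraries carry the signal. Each library came from about 1000 mesenchymal cells of an individual animal, and p-values measure the spread between animals. Mice with a Gli1:CreERT2 driver, active in cells that express Gli1, gave 3 libraries taken 4 days after bile duct ligation (BDL) and 3 uninjured libraries. Mice with a Pdgfra:CreERT2 driver, active in cells that express Pdgfra, gave 3 SmoM2, 4 SmoFF, 3 Ctnnb1FF, 2 Gli2FF, 2 Gli3FF, 4 Gli2FFGli3FF and 5 wild type libraries. Every animal, the controls included, also carried the Cre-dependent tdTomato reporter at Rosa26. By common usage FF stands for a pair of loxP-flanked alleles that Cre inactivates, and SmoM2 for a constitutively active Smo, so the alleles change only cells in which the driver was active. Ages and the time of Cre induction are not known here. Wild type replicate 5 has a description that mentions SmoFF, but by its title and genotype it was treated as wild type.

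Fat cells arise from mesenchymal progenitors in steps. Early signals induce Cebpb and related factors, which switch on Pparg, the nuclear receptor required for fat cell formation, and Cebpa, its partner, and these factors then hold each other and the genes of the mature cell on. The mature cell takes up fatty acids with Lpl, the lipase that frees them from circulating lipoproteins, and with Cd36, a transporter, carries them with Fabp4, coats its lipid droplet with perilipins and secretes adiponectin (Adipoq) and adipsin (Cfd). Several of these genes are also used outside fat: Lpl by fibroblasts and macrophages, Fabp4 by macrophages and capillary endothelium, Cd36 by both, Cfd by some fibroblasts and macrophages, Car3 by skeletal muscle and liver.

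The libraries held 15021796 to 38301189 counts, with 2.37 to 50.03% of them on CT010467.1, a ribosomal RNA locus, and the highest shares in Gli2FFGli3FF. Levels are given as CPM, the counts scaled to a common library total, which that locus dilutes, whereas fold changes come from edgeR's fit with TMM scaling. The 12 fibroblast markers were detected in every group at summed levels of 17980 to 78620 CPM, as the label of mesenchymal cells has it. Smo was lower in SmoFF (9.19 to 10.7 CPM) than in wild type (24.2 to 42.8 CPM, edgeR adjusted p = 3.06e-05), and Ptch1, a target of the pathway, was higher in SmoM2 (276 to 516 CPM) than in wild type (21.7 to 46.9 CPM, edgeR adjusted p = 6.15e-05). Gli2 and Gli3 were lower in Gli2FFGli3FF (0.937 to 4.45 and 1.56 to 4.75 CPM) than in wild type (15.5 to 23.04 and 30.8 to 50.4 CPM, edgeR adjusted p = 0.00386 and 4.52e-06), and Gli3 was lower in Gli3FF (10.2 to 12.9 CPM, edgeR adjusted p = 0.0317). Ctnnb1 in Ctnnb1FF (27.6 to 37.9 CPM against 55.1 to 69.7 CPM in wild type, edgeR adjusted p = 0.108) and Gli2 in Gli2FF (9.98 to 17.97 CPM, edgeR adjusted p = 0.398) were not called lower. In these bulk samples fewer cells of a type and less RNA per cell cannot be told apart.

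Promoters are shown for members that reached their highest level in a shared library, SmoFF replicate 2. Entries of the RefSeq table on GRCm38.p6 were found for 7 of the 10 members. Lpl, Fabp4 and Car3 had none, so Car3, which was also highest in that library, is not shown. Each sequence below gives the 250 bases before the start site, 5′ to 3′ on the gene's strand, with capitals at a match of the nuclear receptor core motif AGGTCA or the C/EBP motif TTGCNNAA on either strand. Adipoq lies at chr16:23146286-23146535 on the plus strand, Cfd at chr10:79890603-79890852 on the plus strand, Cd36 at chr5:17835897-17836146 on the minus strand and Plin1 at chr7:79732777-79733026 on the minus strand.
Adipoq: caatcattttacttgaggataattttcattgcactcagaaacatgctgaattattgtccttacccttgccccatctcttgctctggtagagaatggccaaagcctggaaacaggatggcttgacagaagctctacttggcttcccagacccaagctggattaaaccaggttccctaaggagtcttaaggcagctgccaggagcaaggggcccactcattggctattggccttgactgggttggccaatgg
Cfd: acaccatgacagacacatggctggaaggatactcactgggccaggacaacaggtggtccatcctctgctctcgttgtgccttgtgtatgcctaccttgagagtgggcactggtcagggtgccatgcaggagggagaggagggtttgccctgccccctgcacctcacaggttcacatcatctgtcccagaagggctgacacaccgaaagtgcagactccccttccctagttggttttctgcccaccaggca
Cd36: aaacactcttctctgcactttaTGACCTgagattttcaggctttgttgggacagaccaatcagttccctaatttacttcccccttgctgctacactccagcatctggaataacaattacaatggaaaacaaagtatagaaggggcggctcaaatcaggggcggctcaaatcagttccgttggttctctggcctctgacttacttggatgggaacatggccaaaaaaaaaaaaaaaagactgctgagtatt
Plin1: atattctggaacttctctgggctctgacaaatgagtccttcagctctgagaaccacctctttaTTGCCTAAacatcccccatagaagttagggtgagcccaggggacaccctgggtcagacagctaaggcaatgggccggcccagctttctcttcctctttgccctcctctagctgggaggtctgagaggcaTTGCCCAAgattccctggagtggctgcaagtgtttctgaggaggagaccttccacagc
Cd36 held 1 core motif, which 14% of 32851 promoters of that length hold, and Plin1 held 2 C/EBP matches, a motif in 9.56% of promoters. Adipoq and Cfd held neither within these bases. The direct repeat of the core motif with a base between, the form bound by PPARG with its partner RXR, occurred in 0.0335% of promoters and in none of those of the members.

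Lpl was the only member detected in all 29 libraries, between 53.0 and 1059.7 CPM. Per kilobase of transcript its median level was 118.5 CPM, against 7.68 for Fabp4, 2.12 for Cebpa, 1.80 for Car3 and 0.595 for Pparg. The median library had 0 CPM of Adipoq and of Cfd. Adipoq was detected in 8 libraries, Cfd in 12, Cd36 in 15, Plin1 in 16, Plin4 and Car3 in 17, Pparg in 21, Fabp4 in 26 and Cebpa in 28. Lpl made up 45.99% to 100% of the summed CPM of the 10 genes, and the lowest share was that of SmoFF replicate 2. In Ctnnb1FF replicate 2, the library with the fewest genes detected (15892), Lpl was the only member with a count.

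**Figure D1:**
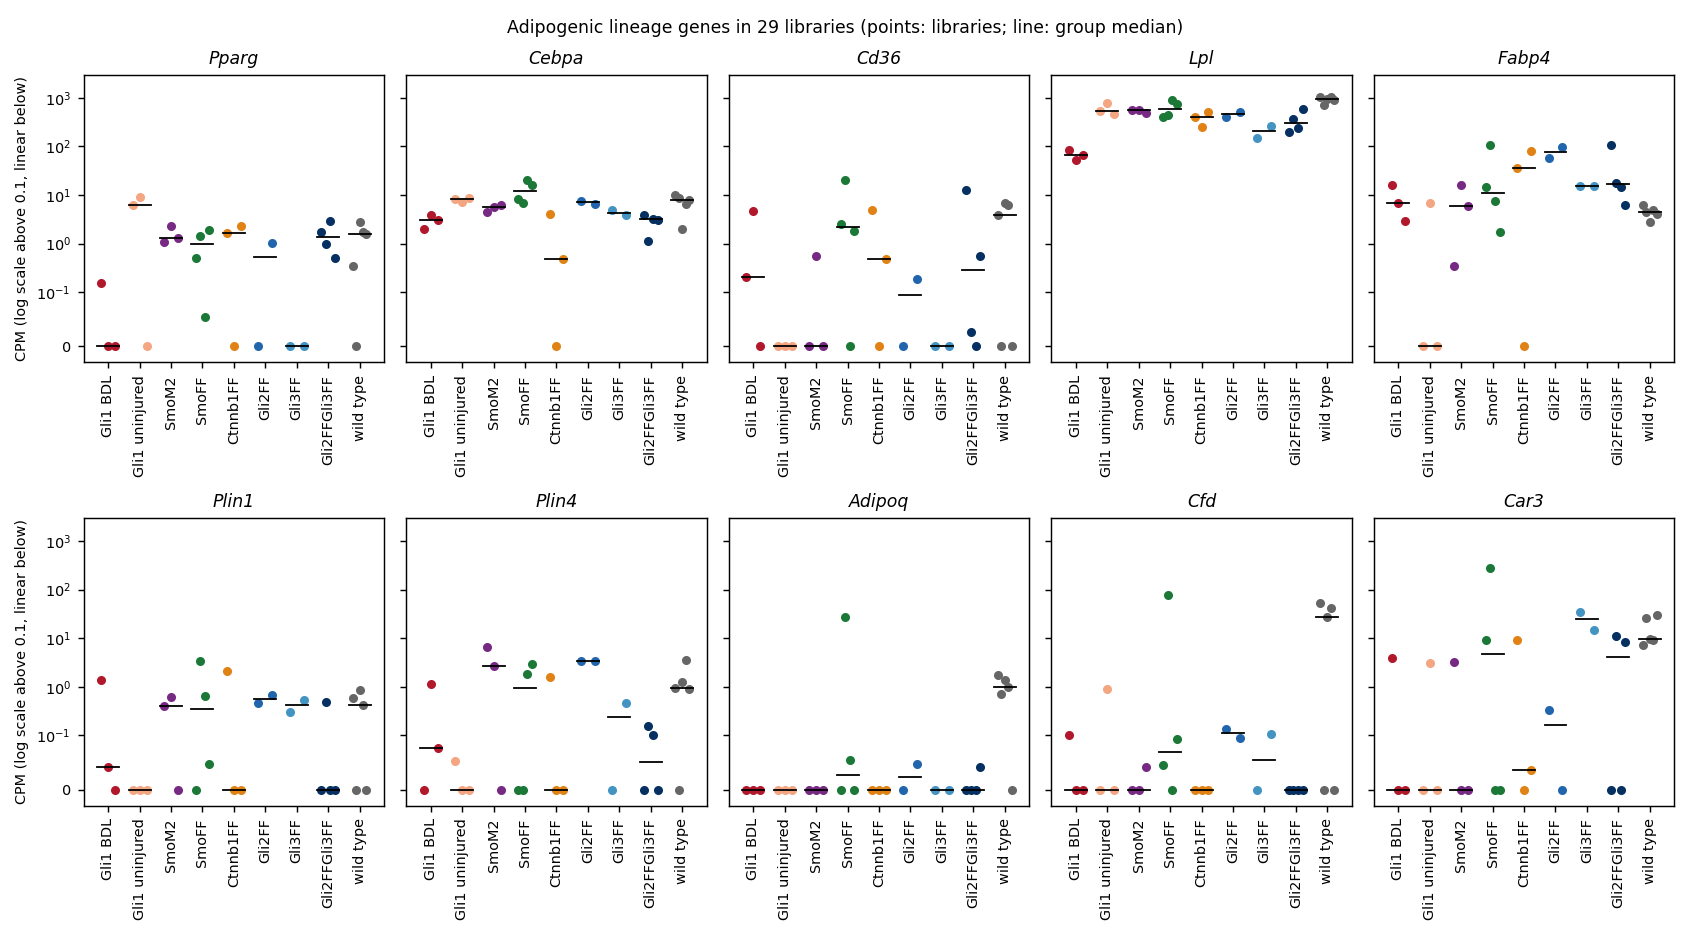
CPM of each adipogenic lineage gene (vertical axis, logarithmic above 0.1 and linear below) in the 29 libraries by group, with a point per library and a line at the group median. Lpl is high in every library, whereas Adipoq reaches 27.9 CPM in a SmoFF library and at most 1.72 CPM in the others.

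Genes were called at an adjusted p under 0.05 over all genes tested, and the members' counts are read against the share of all genes called in the same comparison. After ligation 1 of the 3 members that passed the filter on low counts was called (Lpl, lower), with 13.6% of the 17150 genes tested called. The other 7 members had too few counts in the Gli1 libraries. All 10 passed the filter in the Pdgfra fit of 24383 genes, in which a gene may pass through a single group where it is high. There 2 of 10 were called in Ctnnb1FF, 1 in each direction, where 19.9% of all genes were called (8.04% higher and 11.9% lower). In Gli2FFGli3FF 2 were called, 1 in each direction, beside 17.2% of genes (7.6% and 9.56%). In Gli2FF and in Gli3FF 1 was called, lower, beside 5.84% of genes (2.58% higher and 3.26% lower) and 4.45% (2.09% and 2.36%). In SmoFF (1.55% of genes, 0.287% higher and 1.26% lower), in SmoM2 (0.205%, 0.127% and 0.0779%) and in SmoM2 against SmoFF (2.63%, 1.74% and 0.89%) edgeR called 0 members. Unadjusted p was under 0.05 there for 2, 3 and 3 members. DESeq2 called 0 in SmoFF, 2 in SmoM2 (Lpl and Adipoq, both lower) and 1 in SmoM2 against SmoFF (Adipoq, lower). Of the Adipoq CPM of the SmoFF group 99.8% lay in replicate 2, so the SmoFF level in that last call comes from a single library. With limma voom 0, 3 (Lpl, Adipoq and Car3, all lower) and 0 were called. Over all genes DESeq2 called 1263, 285 and 1693 of 39351 in these comparisons, and limma voom 435, 1456 and 1626 of 24383. Adipoq exceeded 1 CPM in only 4 libraries, wild type replicates 1, 3 and 4 and SmoFF replicate 2. It thus passed the filter on low counts through groups where it was high, among them the reference groups of its calls. The calls of Adipoq are given as values and support no further statement. The 6 comparisons with wild type share the same 5 control libraries, so their results are not independent. The median log2 fold change of the members was 0.69 in SmoFF, -0.80 in SmoM2, -0.74 in Ctnnb1FF, -1.47 in Gli2FF, -2.08 in Gli3FF and -0.75 in Gli2FFGli3FF. All genes tested had medians of 0.02, 0.02, -0.61, 0.12, -0.22 and -0.35. The member medians take in genes with few or no counts in the tested group, so they are given as values and show no shift of the set. In Gli3FF, Pparg, Cd36 and Adipoq had no count and log2 fold changes of -7.79, -9.25 and -7.52.

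SmoFF replicate 2 held the highest level of the 29 libraries for 5 members, Adipoq, Cfd, Car3, Cd36 and Plin1. Over all 41417 genes with a count this library was the highest for 3.96%. Car3 (chr3:14863512-14872523, plus strand, mm10), a carbonic anhydrase abundant in fat, had 9.27, 275.5, 0 and 0 CPM in SmoFF replicates 1 to 4, against 7.41, 26.04, 9.85, 9.14 and 29.7 CPM in wild type replicates 1 to 5. Cfd had 0.0452, 77.0, 0 and 0.0943 CPM in SmoFF replicates 1 to 4, against 53.6, 0, 27.4, 41.5 and 0 CPM in the wild type. Adipoq had 0, 27.9, 0.0537 and 0 CPM in SmoFF, against 1.72, 0.730, 1.41, 1.02 and 0 CPM in the wild type. For each of these genes a single SmoFF library stood far above the other 3, and the groups overlapped. Of all Adipoq CPM in the series 84.7% lay in SmoFF replicate 2, and of Car3 60.4%, of Cfd 38.3%, of Cd36 30.9% and of Plin1 26.5%. Outside SmoFF, Car3 had 3.25, 0 and 0 CPM in SmoM2 and 0.333 and 0 CPM in Gli2FF, all below the wild type but not called (edgeR adjusted p = 0.721 and 0.241), and 35.3 and 14.8 CPM in Gli3FF (edgeR adjusted p = 0.814). The SmoFF replicate 2 values rest on 688 reads of Adipoq, 1898 of Cfd and 6792 of Car3 in that library.

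Without SmoFF replicate 2 the mean of the SmoFF libraries was 0.0179 CPM for Adipoq (6.99 CPM with it), 0.0465 for Cfd (19.3 with it) and 3.09 for Car3 (71.2 with it). The SmoFF group mean was thus above the wild type mean for Adipoq and Car3 with this library and below it without. Summed over the 9 members other than Lpl, SmoFF replicate 2 had 517 CPM, and the next library, Gli2FFGli3FF replicate 1, had 126.5 CPM. Not every member was high there: Lpl had 440.5 CPM in SmoFF replicate 2, against 392, 887 and 733 CPM in SmoFF replicates 1, 3 and 4. The adipogenic factors were in the range of the other libraries, with 1.46 CPM of Pparg and 6.98 CPM of Cebpa, and Plin4, a perilipin of fat and muscle, had no count.

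Other genes of fat cells were also highest in this library, 11 of a list of 36. Thrsp, a regulator of lipid synthesis, had 31.5 CPM there and at most 1.99 CPM elsewhere. Retn, the hormone resistin, had 6.04 CPM (0.718 at most elsewhere), Cidec, which fuses lipid droplets, 5.31 CPM (2.72), and Gpd1, which supplies the glycerol backbone of fat, 12.4 CPM (4.70). Pck1, a gluconeogenic and glyceroneogenic enzyme, was detected in no other library (2.23 CPM, 55 reads), and Lep, the hormone leptin, had 0.487 CPM. Fabp5, a relative of Fabp4, had 61.1 CPM (34.7), and Dgat2, Adig, Bscl2 and Cav1 completed the 11. Cidea, Slc2a4, Aqp7 and Ucp1 of the same list had no count there.

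**Figure D2:**
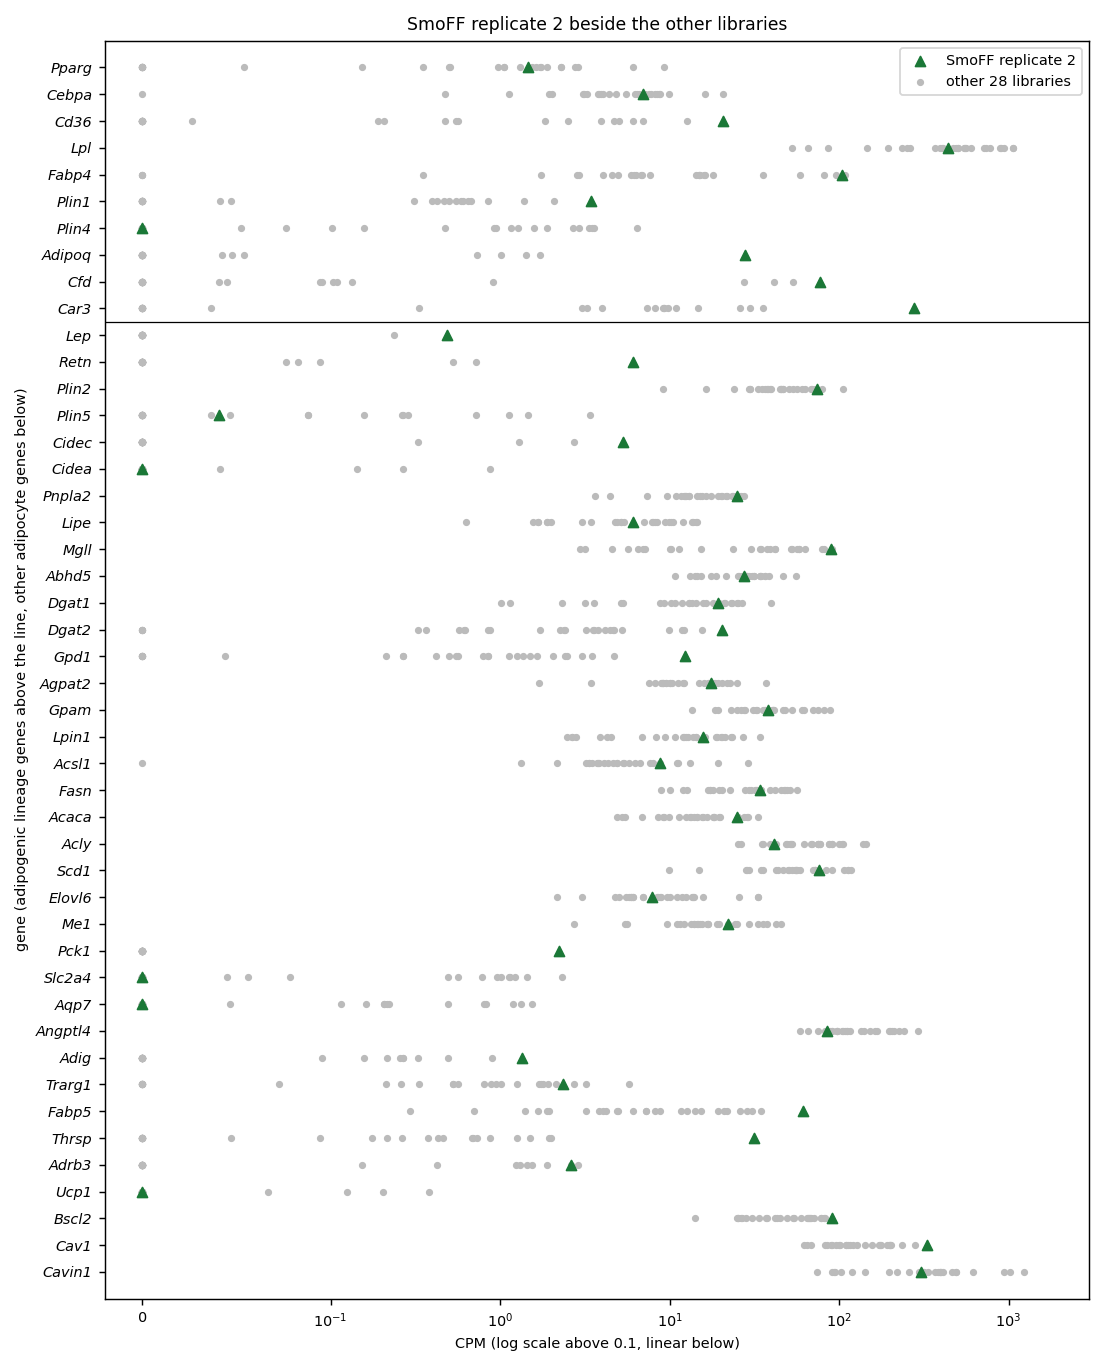
CPM (horizontal axis, logarithmic above 0.1 and linear below) of the 10 adipogenic lineage genes and of 36 other adipocyte genes, 1 row per gene, with SmoFF replicate 2 as triangles and the other 28 libraries as grey points. The triangle is farthest right for 5 of the 10 and 11 of the 36, among them Car3 at 275.5 CPM.

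Markers of other cells were measured in the same library. The 12 mesothelial markers, of the cell layer that lines the abdominal cavity, summed to 2033 CPM, all 12 detected and 7 of them at their highest of the 29 libraries, against 740.7 to 902.8 CPM in the other SmoFF libraries and 192.5 to 591.4 CPM in wild type. The cholangiocyte markers, of bile duct epithelium, summed to 378.1 CPM with 10 of 12 detected (Krt19 at 190.4 CPM, Spint2 at 96.7 CPM, its highest of the 29 libraries), against 60.0 to 99.3 CPM in wild type, and the pancreatic acinar markers to 27.1 CPM with 6 of 12 detected, against 1.14 to 8.20 CPM in wild type. Both sums were the highest of the SmoFF libraries. Macrophage markers were low, 5 of 12 detected with a sum of 7.30 CPM, and Adgre1, C1qa and Tyrobp were at 0. The endothelial sum was 80.1 CPM (80.1 to 121.4 in SmoFF, 73.4 to 103.2 in wild type), with Tek at 47.7 CPM, Kdr at 19.5 CPM, its highest of the 29 libraries, Ptprb at 5.60 CPM, and Cdh5, Emcn, Tie1 and Gpihbp1 at 0. Of the muscle markers 7 of 12 were detected with 30.4 CPM in all, and of the hepatocyte markers 6 of 12, with Cyp2e1 giving 216.5 of 251.9 CPM and Alb at 0. The fibroblast markers summed to 33130 CPM, against 25080 to 30870 CPM in the other SmoFF libraries. The part of these other cells in the result was not tested.

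In the wild type group the secreted products also sat in some libraries and not in others. Cfd was at 53.6, 27.4 and 41.5 CPM in replicates 1, 3 and 4 and had no count in replicates 2 and 5, where 3 counts would equal 0.122 and 0.132 CPM. Cd36 had 3.92, 6.97 and 6.09 CPM in replicates 1, 3 and 4 and no count in replicates 2 and 5. Car3 ran the other way, with 7.41, 9.85 and 9.14 CPM in replicates 1, 3 and 4 and 26.04 and 29.7 CPM in replicates 2 and 5. All 10 members were detected in replicates 1, 3 and 4, but 5 in replicate 2 and 6 in replicate 5. The 12 macrophage markers moved with Cfd and Cd36 in the wild type group, summing to 137.9, 86.0 and 125.0 CPM in replicates 1, 3 and 4 (11, 11 and 12 detected) and to 8.11 and 12.4 CPM in replicates 2 and 5 (6 and 6 detected). Their part in the Cfd and Cd36 values was not tested. In the other genotypes the libraries differed. SmoFF replicate 1 had the highest macrophage sum of all, 332.3 CPM with all 12 detected, at 0.0452 CPM of Cfd and 2.53 CPM of Cd36. Gli2FFGli3FF replicate 1 had a macrophage sum of 270.9 CPM, no Cfd count and 12.7 CPM of Cd36. Gli2FFGli3FF replicates 2 to 4 had 0.0261, 0 and 0.551 CPM of Cd36. SmoFF replicate 2 had the highest Cfd and the lowest macrophage sum of the 29 libraries.

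**Figure D3:**
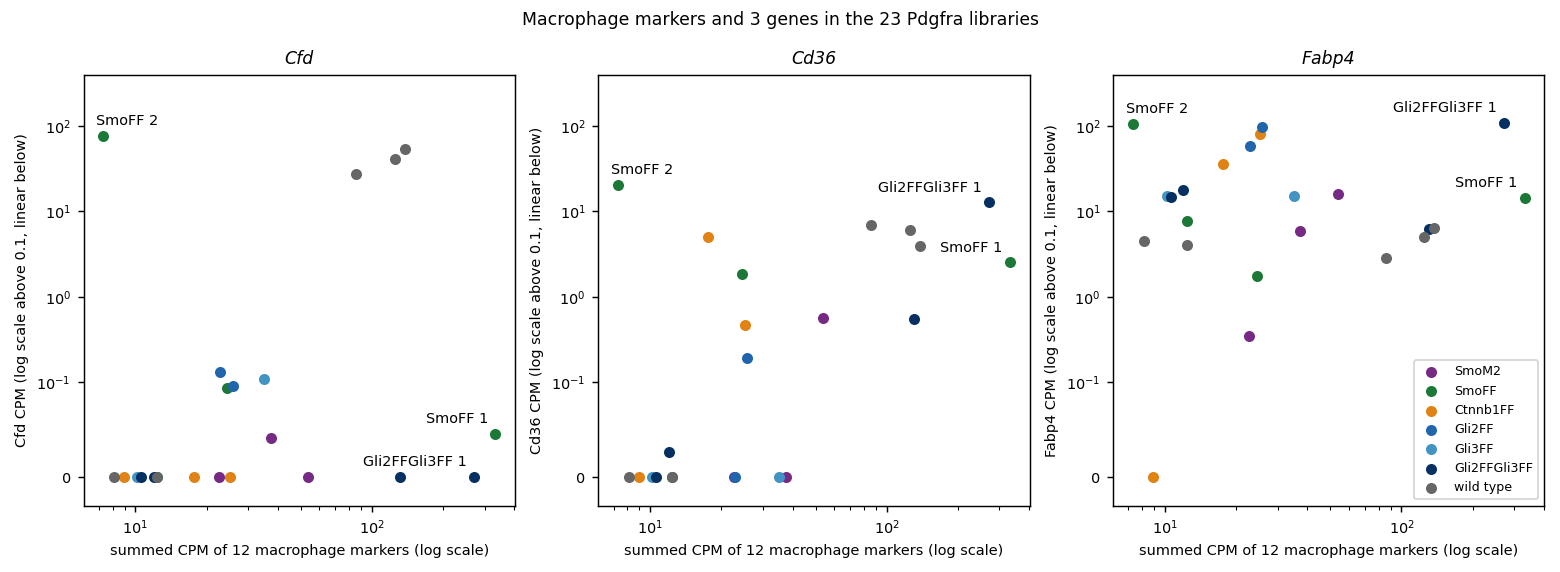
CPM of Cfd, Cd36 and Fabp4 (vertical axes, logarithmic above 0.1 and linear below) against the summed CPM of 12 macrophage markers (horizontal axis, logarithmic) in the 23 Pdgfra libraries, coloured by genotype. The 3 wild type libraries with Cfd have macrophage sums of 86.0 to 137.9 CPM, and SmoFF replicate 2 has 77.0 CPM of Cfd at a sum of 7.30 CPM.

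Lpl (chr8:68880491-68907448, plus strand, mm10), the lipase that releases fatty acids from lipoproteins, fell after ligation. It had 86.1, 53.0 and 65.4 CPM in the BDL libraries, against 544.6, 774.3 and 469.7 CPM in the uninjured libraries. The groups did not overlap, and the log2 fold change was -3.14 (SE 0.31, edgeR adjusted p = 0.00298), 8.85-fold lower. The call held in all 12 alternative settings, among them the 6 that leave out a library, with log2 fold changes of -3.35 to -2.85. Several markers moved between the same libraries: the fibroblast sum was 76030 to 78620 CPM in BDL and 40510 to 45540 CPM in uninjured libraries, the mesothelial sum 90.6 to 116.7 and 344.9 to 1345 CPM, the endothelial sum 15.1 to 51.3 and 130.4 to 183.9 CPM (of which Tek gave 109.7 to 154.6 CPM in uninjured libraries), the hepatocyte sum 53.9 to 88.4 and 326.8 to 419.3 CPM, the pancreatic acinar sum 5.76 to 11.4 and 15.5 to 52.3 CPM, and the macrophage sum 37.8 to 95.6 and 7.89 to 22.5 CPM. Of the 12 hepatocyte markers 4 to 6 were detected in BDL and 3 to 4 in uninjured libraries. The part of these cell markers in the fall of Lpl was not tested.

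Lpl also fell in Gli3FF and in Gli2FF. In Gli3FF it had 145.2 and 260.4 CPM, against 1059.7, 713.1, 939.1, 1058.1 and 905.8 CPM in wild type replicates 1 to 5, with a log2 fold change of -1.87 (SE 0.35, edgeR adjusted p = 0.00187). In Gli2FF it had 409.7 and 506.5 CPM, a log2 fold change of -1.38 against the same wild type libraries (SE 0.34, edgeR adjusted p = 0.0157). Neither group overlapped the wild type. The Gli3FF call was lost without Gli3FF replicate 1 (log2 fold change -1.74, edgeR adjusted p = 0.0735). The Gli2FF call was lost without Gli2FF replicate 1 or 2 (-1.28 and -1.59, edgeR adjusted p = 0.269 and 0.0793) and with only wild type replicates 4 and 5 as controls (-1.28, edgeR adjusted p = 0.18). With all libraries they were -1.88 in Gli3FF and -1.38 in Gli2FF. Where 1 library is left in a group it is taken to vary like the others. In Gli3FF the endothelial sum was 7.89 to 12.7 CPM against 73.4 to 103.2 CPM in wild type, the hepatocyte sum 664.1 to 877.2 against 102.3 to 214.3 CPM, the cholangiocyte sum 5.28 to 13.1 against 60.0 to 99.3 CPM and the mesothelial sum 84.6 to 90.5 against 192.5 to 591.4 CPM. In Gli2FF the cholangiocyte sum was 129.0 to 209.3 CPM and the skeletal muscle sum 31.3 to 38.5 CPM, against 60.0 to 99.3 and 7.83 to 22.4 CPM in wild type. Of the 12 hepatocyte markers 4 to 5 were detected in Gli3FF libraries and 4 to 6 in wild type. The part of these cell markers in the Lpl values was not tested.

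The other genotypes lay between. Lpl averaged 534.0 ± 40.2 CPM in SmoM2 (SD, n = 3), 613.4 ± 236.8 CPM in SmoFF (SD, n = 4), 386.1 ± 128.0 CPM in Ctnnb1FF (SD, n = 3) and 349.5 ± 181.6 CPM in Gli2FFGli3FF (SD, n = 4), against 935.2 ± 142.1 CPM in wild type (SD, n = 5). The log2 fold changes were -1.02, -0.76, -0.71 and -0.68, with edgeR adjusted p of 0.181, 0.142, 0.071 and 0.0667, so none of the 4 was called. Some alternative settings did call Lpl lower: 4 of 17 in SmoM2, 1 of 18 in SmoFF, 2 of 17 in Ctnnb1FF and 5 of 18 in Gli2FFGli3FF. Of the 18 libraries of the 6 genotypes, 16 were below every wild type library, and with the ribosomal RNA locus left out of the totals all 18 were (wild type at least 1010.0 CPM). In Ctnnb1FF the median of all genes tested was -0.61, and Lpl lay 0.10 below it on the log2 scale, with a range over the alternatives from 0.13 above it (without Ctnnb1FF replicate 2) to 0.54 below it (DESeq2). In Gli2FFGli3FF Lpl lay 0.32 below the median, with a range from 0.14 (without Gli2FFGli3FF replicate 1) to 0.65 (DESeq2), in Gli2FF 1.49 below and in Gli3FF 1.65 below. Ordered by mean CPM, Lpl ran from wild type through SmoFF, Gli1 uninjured, SmoM2, Gli2FF, Ctnnb1FF, Gli2FFGli3FF and Gli3FF to BDL. Each group overlapped the next in this order except Gli3FF and BDL. The middle of the order depends on dilution by the ribosomal RNA locus. With that locus left out of the totals, the means were 645.4 CPM in SmoM2 and 617.0 CPM in Gli1 uninjured libraries. Gli2FFGli3FF then had 612.6 CPM, Ctnnb1FF 563.9 CPM and Gli2FF 513.8 CPM, the reverse of their order above.

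**Figure D4:**
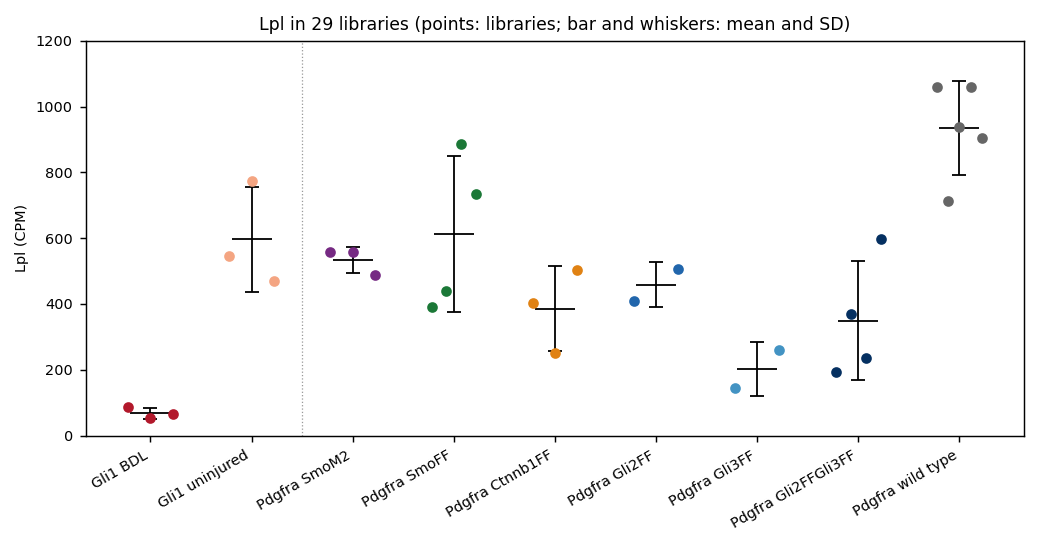
Lpl in CPM (vertical axis, linear) in each of the 29 libraries, grouped along the horizontal axis, with the group mean and SD in black. The 3 BDL libraries lie between 53.0 and 86.1 CPM, and the 5 wild type libraries between 713.1 and 1059.7 CPM.

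Fabp4 (chr3:10204088-10208576, minus strand, mm10), the fatty acid carrier of fat cells and macrophages, was higher in Gli2FFGli3FF and in Ctnnb1FF than in wild type. It had 108.3, 17.99, 14.9 and 6.19 CPM in Gli2FFGli3FF replicates 1 to 4, 35.6, 0 and 81.5 CPM in Ctnnb1FF replicates 1 to 3, and 6.35, 4.54, 2.83, 4.98 and 4.04 CPM in the wild type replicates. The wild type libraries were close together, whereas the mutant libraries were spread and overlapped them. The log2 fold change was 3.87 in Gli2FFGli3FF (SE 1.18, edgeR adjusted p = 0.0277) and 3.67 in Ctnnb1FF (SE 1.22, edgeR adjusted p = 0.037). In Gli2FF both libraries were above every wild type library, at 58.6 and 96.2 CPM, but the test did not call it (log2 fold change 3.72, edgeR adjusted p = 0.0937). Gli3FF had 15.1 and 14.9 CPM (edgeR adjusted p = 0.378), SmoFF 14.4, 104.5, 7.63 and 1.74 CPM (edgeR adjusted p = 0.286) and SmoM2 0.352, 16.1 and 5.92 CPM (edgeR adjusted p = 1). After ligation Fabp4 had 15.96, 6.88 and 2.94 CPM, against 0, 6.76 and 0 CPM in uninjured libraries (log2 fold change 1.85, edgeR adjusted p = 0.666). With a library left out that log2 fold change ran from 1.04 to 10.57, and 1 of 12 alternatives called it.

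The Fabp4 calls rest on few libraries. Without Gli2FFGli3FF replicate 1 the log2 fold change there was 2.39 (edgeR adjusted p = 0.16), and without Ctnnb1FF replicate 3 it was 2.54 (edgeR adjusted p = 0.172). In all, 4 of 9 settings that leave out a library ended the call in Gli2FFGli3FF and 6 of 8 ended it in Ctnnb1FF, among them the loss of any wild type library in Ctnnb1FF (edgeR adjusted p = 0.0548 to 0.0743). With the replicate number as a block the edgeR adjusted p was 0.148 in Gli2FFGli3FF and 0.209 in Ctnnb1FF. Both calls were also lost with limma voom, and with only wild type replicates 1 to 3 or only 4 and 5 as controls. Over all alternatives, 8 of 18 ended the call in Gli2FFGli3FF and 10 of 17 ended it in Ctnnb1FF. Gli2FFGli3FF replicate 1 also had 12.7 CPM of Cd36, the second highest of the series, and a macrophage sum of 270.9 CPM with 11 of 12 markers detected, of which Lyz2 gave 194.4 CPM. The macrophage sums of the other libraries with over 50 CPM of Fabp4 were 7.30 CPM in SmoFF replicate 2, 25.2 CPM in Ctnnb1FF replicate 3 and 22.8 and 25.8 CPM in Gli2FF. In these 4 libraries 4 to 8 of the 12 markers were detected. Cd68 was at 14.6 and 15.3 CPM in Gli2FF, against 0 to 5.72 CPM in wild type, Ptprc was at 7.59 CPM in Ctnnb1FF replicate 3, and Adgre1 was detected in Gli2FF replicate 2 alone. The part of macrophage RNA in Fabp4 was not tested.

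Cfd, the serine protease adipsin, was called lower in Ctnnb1FF and in Gli2FFGli3FF. It exceeded 1 CPM in only 4 libraries, wild type replicates 1, 3 and 4 and SmoFF replicate 2, and so passed the filter on low counts through groups where it was high, among them the wild type group of these comparisons. The calls are given as values and support no further statement. All 3 Ctnnb1FF and all 4 Gli2FFGli3FF libraries had no Cfd count, against a mean of 24.5 ± 24.2 CPM in wild type (SD, n = 5), whose replicates 2 and 5 had none either. Set against a floor of 3 counts per library the mean was at least 221-fold lower in Ctnnb1FF (edgeR adjusted p = 0.0391) and at least 228-fold lower in Gli2FFGli3FF (edgeR adjusted p = 0.0243). Both groups overlapped the wild type at 0. The Ctnnb1FF call was lost in 6 of 8 settings that leave out a library (edgeR adjusted p up to 0.111), and the Gli2FFGli3FF call in 4 of 9, those without a Gli2FFGli3FF library (edgeR adjusted p = 0.0516 to 0.0595). Both Cfd calls were lost with only wild type replicates 4 and 5 as controls, and the Ctnnb1FF call was lost with limma voom as well. In SmoM2, Gli2FF and Gli3FF Cfd was also at most 0.133 CPM, with edgeR adjusted p of 0.372, 0.209 and 0.219. The macrophage sum was 8.93 to 25.2 CPM in Ctnnb1FF and 10.6 to 270.9 CPM in Gli2FFGli3FF, against 8.11 to 137.9 CPM in wild type. Other measures did not overlap the wild type: fibroblast sums were 26710 to 29720 CPM in Ctnnb1FF and 17980 to 26080 CPM in Gli2FFGli3FF, against 36230 to 47580 CPM in wild type, and endothelial sums 39.1 to 71.5 and 17.9 to 33.6 CPM, against 73.4 to 103.2 CPM. The cholangiocyte sum was 15.1 to 55.2 CPM in Ctnnb1FF, against 60.0 to 99.3 CPM in wild type. Genes detected numbered 15892 to 17726 in Ctnnb1FF and 17508 to 20055 in Gli2FFGli3FF, against 21127 to 24483 in wild type, and the ribosomal RNA locus took 38.4 to 50.03% of counts in Gli2FFGli3FF, against 13.4 to 29.4% in wild type. These differences stand beside the Fabp4 calls in both genotypes too. Their part in either gene's values was not tested.

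**Figure D5:**
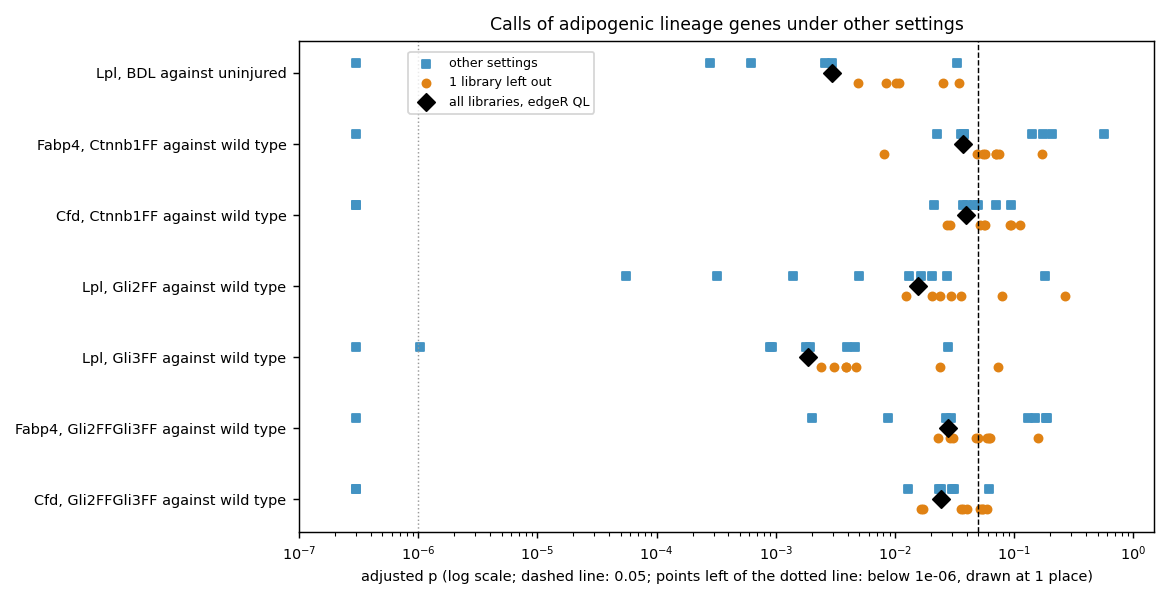
Adjusted p (horizontal axis, logarithmic) of the 7 calls of adipogenic lineage genes with all libraries (diamonds), with 1 library left out (circles) and under other settings (squares), and a dashed line at 0.05. Values too small for the axis are drawn in a column left of the dotted line. Every point of Lpl after ligation lies left of the line, whereas points of Fabp4 and Cfd lie on both sides.

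The factors at the head of the programme were not called in any comparison with edgeR. Cebpa had 1.95, 3.94 and 3.13 CPM in BDL and 8.22, 7.14 and 8.73 CPM in uninjured libraries, with no overlap (log2 fold change -1.42, edgeR adjusted p = 0.155), and DESeq2 called it lower (adjusted p = 0.00629). Pparg had 0.154, 0 and 0 CPM in BDL and 6.07, 9.21 and 0 CPM in uninjured libraries, too few counts for edgeR's filter, and DESeq2 called it lower (adjusted p = 0.0246). In the Pdgfra libraries Cebpa was between 0 and 20.5 CPM, highest in SmoFF replicates 3 and 4 (20.5 and 16.2 CPM), against 8.41 and 6.98 CPM in SmoFF replicates 1 and 2 and 2.03 to 9.95 CPM in wild type (edgeR adjusted p = 0.78). The SmoFF library rich in Adipoq was thus not the one rich in Cebpa. Pparg was at 0 in both Gli3FF libraries and at 0 to 2.78 CPM in wild type (edgeR adjusted p = 0.127), and at most 2.88 CPM in the other genotypes. Antisense genes overlap Pparg and Cebpa, and since it is not known whether counting used strand, their reads cannot be told apart.

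The droplet coat genes were low. Plin1, the perilipin of large fat droplets, exceeded 1 CPM in 3 libraries: 3.45 CPM in SmoFF replicate 2, 2.08 CPM in Ctnnb1FF replicate 1 and 1.39 CPM in BDL replicate 1. Plin4 exceeded 1 CPM in 10 libraries and was highest in SmoM2 replicate 1, at 6.46 CPM. Both Gli2FF libraries had Plin4 at 3.46 and 3.34 CPM, against 0 to 3.57 CPM in wild type (edgeR adjusted p = 0.848). Plin4 shares exon bases with Hdgfl2 on the other strand, so its counts are uncertain. No comparison called either gene with edgeR. Cd36 was not called with edgeR in any comparison either. It was above 1 CPM in 9 libraries, and both Gli3FF libraries had no count, against 0 to 6.97 CPM in wild type (edgeR adjusted p = 0.251).

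The members differed in how far they went together across libraries. The measure of likeness was Pearson's r of log2 CPM (prior count 2) after subtracting the mean of each group, over 23 Pdgfra libraries that share sequencing depth and dilution differences, and it is a description. Adipoq was most like Cfd among the members (r = 0.80) and less like Plin1 (0.55), Cd36 (0.46), Car3 (0.45) and Fabp4 (0.29), and it was near 0 with Pparg (0.07). Without SmoFF replicate 2, a choice made after its values were seen, r was 0.68 with Cfd, 0.37 with Cd36, -0.08 with Car3 and 0.00 with Fabp4. Fabp4 was most like Cebpa (0.54), Pparg (0.52) and Cd36 (0.50). Among 10696 other genes, the 8 most like Adipoq were Rab18 (0.84), Smim8, Tm4sf1, Sec62, Atox1, Ebpl, Wdr61 and Tspan6 (0.71), and without SmoFF replicate 2 their r was 0.15 to 0.60. The 8 most like Fabp4 were Hdac6 (0.87), Trem2, Yipf1, H2bc12, Strada, Cfap43, Rras2 and Akr1c13, with r of 0.81 to 0.90 without SmoFF replicate 2. Trem2, a receptor of lipid-laden macrophages, had 49.2 CPM in SmoFF replicate 2, where the macrophage sum was 7.30 CPM, and a median of 8.81 CPM in the Pdgfra libraries. Wild type replicates 1, 3 and 4, with macrophage sums of 86.0 to 137.9 CPM, had 1.69, 1.13 and 0.655 CPM of Trem2. Gli2FFGli3FF replicate 1, with a macrophage sum of 270.9 CPM, had 19.4 CPM. The part of macrophage RNA in the Trem2 values was not tested.

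Among 24 regulators of adipogenesis, edgeR called 1 higher and 6 lower of the 22 tested after ligation (7.77% and 5.8% of all genes). Ebf2, a factor that marks committed fat precursors, averaged 3.79 CPM in BDL and 83.1 CPM in uninjured libraries (log2 fold change -4.46, edgeR adjusted p = 0.000508), and Ebf1, its relative, 29.5 and 323.7 CPM (-3.45, edgeR adjusted p = 0.0123). Klf2, Nr3c1, Nr1h3 and Foxo1 were the other 4 that fell, and Nr2f2 rose. These counts do not separate activators of the programme from its repressors, so they give it no direction. In Gli3FF 1 rose and 4 fell of 24 (4.45% of all genes called), in Ctnnb1FF 1 rose and 5 fell (19.9%), in Gli2FFGli3FF 1 rose and 3 fell, 16.7% called and near the 17.2% of all genes, and in Gli2FF 1 (Foxo1) rose (5.84%). In SmoM2 against wild type edgeR called 0 of 24, with 4 at an unadjusted p under 0.05. DESeq2 called 0 and limma voom 4, beside 285 of 39351 genes with DESeq2 and 1456 of 24383 with limma voom. Zfp423, a factor that commits fibroblasts to the fat lineage, averaged 5.17 CPM in Gli3FF, 5.98 CPM in Gli2FFGli3FF and 12.5 CPM in Ctnnb1FF, against 38.4 CPM in wild type, with edgeR adjusted p of 0.000612, 0.000133 and 0.0218. Ebf1 fell in the same 3 genotypes, to 55.0, 42.0 and 71.2 CPM against 332.7 CPM in wild type. In Ctnnb1FF the Zfp423 log2 fold change of -1.05 compares with -0.61 for the median gene.

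Cebpb, which acts at the start of adipogenesis and also in stress responses, was the 1 regulator of 24 that edgeR called in SmoFF (1.55% of all genes). DESeq2 called 2 higher and 1 lower there, and limma voom 2 higher and 0 lower, beside 1263 of 39351 and 435 of 24383 genes. Cebpb lay between 86.5 and 116.6 CPM in SmoFF and between 1.84 and 41.7 CPM in wild type, with no overlap (log2 fold change 2.76, edgeR adjusted p = 0.0106). In SmoM2 it lay between 3.02 and 5.47 CPM, lower than in SmoFF (log2 fold change -4.61, edgeR adjusted p = 0.000976). It was again the 1 regulator of 24 that edgeR called (2.63% of all genes). In that comparison DESeq2 called 0 higher and 3 lower and limma voom 2 higher and 4 lower, beside 1693 of 39351 and 1626 of 24383 genes. The 4 SmoFF libraries were alike in Cebpb, unlike in Adipoq, Cfd and Car3. In Gli2FFGli3FF Cebpb was also called higher (19.4 to 36.7 CPM, log2 fold change 1.89, edgeR adjusted p = 0.0158), though its CPM overlapped the wild type.

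Of 18 markers of fat progenitors in connective tissue, more were called lower than higher after ligation and in Ctnnb1FF, Gli2FF, Gli3FF and Gli2FFGli3FF, and none was called in SmoFF or SmoM2 against wild type with edgeR. After ligation 9 fell and 1 rose of 17 tested (5.8% of all genes lower and 7.77% higher). Dpp4, a marker of early progenitors, averaged 3.11 CPM in BDL and 206.9 CPM in uninjured libraries (log2 fold change -6.05, edgeR adjusted p = 0.00625), and Cd34, a surface glycoprotein of progenitors, 278.5 and 1966 CPM (-2.83, edgeR adjusted p = 0.000667). In Gli2FFGli3FF 8 fell and 0 rose of 18 (9.56% of all genes lower), in Gli2FF 6 fell and 0 rose (3.26% lower), in Ctnnb1FF 6 fell and 1 rose (11.9% lower), and in Gli3FF 5 fell and 2 rose (2.36% lower). Pi16, which marks adventitial fibroblasts, averaged 63.5 CPM in Gli3FF, 117.8 in Gli2FFGli3FF, 366.2 in Gli2FF and 287.5 in Ctnnb1FF, against 1322 CPM in wild type, and was called in each. Dact2 was also called lower in these 4 genotypes, at 0 to 9.89 CPM against 28.9 to 74.6 CPM in wild type. In SmoFF and SmoM2 edgeR called 0 of 18 against wild type, with 6 and 7 at an unadjusted p under 0.05. There DESeq2 called 2 and 3, and limma voom 0 and 5. Over all genes DESeq2 called 1263 and 285 of 39351 in SmoFF and SmoM2, and limma voom 435 and 1456 of 24383. The list's median log2 fold change was -2.02 after ligation, -0.73 in Gli2FFGli3FF, -0.99 in Gli2FF, -0.75 in Ctnnb1FF and -0.62 in Gli3FF, beside medians over all genes of 0.07, -0.35, 0.12, -0.61 and -0.22. Pdgfra and Pdgfrb of this list are also fibroblast markers.

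Of the 36 other adipocyte genes, edgeR called 3 higher and 3 lower of 23 tested after ligation (7.77% and 5.8% of all genes). Fabp5 rose to 18.99 CPM in BDL, against 1.87 CPM in uninjured libraries (edgeR adjusted p = 0.0242), Gpam and Trarg1 rose, and Lpin1, Cavin1 and Mgll fell. In SmoFF, the group with the library described above, 0 of 32 tested were called by edgeR and by limma voom and 2 by DESeq2. Unadjusted p was under 0.05 there for 8. In SmoM2 0 were called by edgeR, 1 by DESeq2 and 3 by limma voom, with 5 at an unadjusted p under 0.05. Over all genes DESeq2 called 1263 and 285 of 39351 in SmoFF and SmoM2, and limma voom 435 and 1456 of 24383. Mgll, which completes the breakdown of stored fat, fell in Ctnnb1FF (3.57 CPM on average), Gli3FF (6.09) and Gli2FFGli3FF (8.84) against 43.2 CPM in wild type, with edgeR adjusted p of 1.1e-05, 0.00195 and 0.00312. Gpam, which starts triglyceride synthesis, rose in Gli3FF (71.4 CPM on average, against 37.2 CPM in wild type, edgeR adjusted p = 0.00384). Counts of called genes were 0 higher and 4 lower in Ctnnb1FF, 0 and 1 in Gli2FF, 2 and 2 in Gli3FF and 2 and 4 in Gli2FFGli3FF. As shares of the 32 tested these were 12.5% in Ctnnb1FF, 3.12% in Gli2FF, 12.5% in Gli3FF and 18.8% in Gli2FFGli3FF, beside 19.9%, 5.84%, 4.45% and 17.2% of all genes.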

How the data were processed

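Per the labels' protocols, bile ducts were dissected and digested, mesenchymal cells were sorted into lysis buffer, and cDNA was made by a Smart-seq3 protocol with Smart-seq2 oligonucleotides. Raw counts of reads per gene, not normalized, are what the authors deposited. The submitters' processing notes name mm10 as the build, and neither the aligner and counter nor the strand setting is given there. Without molecular identifiers, floors of 3 counts cover counting error only.

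Titles gave the groups and the replicate numbers. Tests used edgeR 4.0.16 under R 4.3.3 (low-count filter filterByExpr, TMM scaling, quasi-likelihood test, Benjamini-Hochberg adjustment over all genes tested), with the 6 Gli1 libraries in one fit and the 23 Pdgfra libraries in another. Alternatives were DESeq2 1.42.0, limma 3.58.1 voom with quality weights, RLE scaling, no filter on low counts, the replicate number as a block, the compared groups alone, removal of the ribosomal RNA locus, other wild type controls, and each library left out in turn. Same-numbered libraries did not deviate together.

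Gene coordinates and transcript lengths follow GENCODE M21 on mm10 (longest principal transcript). The 10 genes and the lists were chosen with earlier results of these data known. The text names all members and, per list and comparison, up to 6 called genes with the smallest p, and gives markers of other cells as summed CPM. For Adipoq and Fabp4 it names the 8 genes most alike, among tested genes averaging log2 CPM 1 or more.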

Additional observations from a re-analysis of the deposited data

Results flagged for a closer look

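In groups of 4 to 10 libraries, a library was picked out when its gap to the nearest other library was a large share of the group's whole range (Dixon's ratio at 95%). Of 29 combinations of a member and a group, 9 held such a library. Chance flags about 1 in 20 groups of independent, normally distributed values, which these are not: 5 of the 9 share a library and 2 rest on other libraries at 0, so the count is not set against chance. SmoFF replicate 2 accounts for 5 of them: Adipoq at 27.9 CPM (the nearest SmoFF library had 0.0537), Cfd at 77.0 CPM (0.0943), Car3 at 275.5 CPM (9.27), Cd36 at 20.5 CPM (2.53) and Fabp4 at 104.5 CPM (14.4). Gli2FFGli3FF replicate 1 accounts for 2, Fabp4 at 108.3 CPM (17.99) and Cd36 at 12.7 CPM (0.551). The last 2 are low values where the other 3 libraries had no count, Plin1 at 0.496 CPM in Gli2FFGli3FF replicate 2 and Adipoq at 0.0424 CPM in Gli2FFGli3FF replicate 4.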

How the results depend on the processing

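The number of members called was compared over 12 to 18 alternatives per comparison. After ligation it was 1 with all libraries, 3 with DESeq2 and 1 to 2 with a library left out. In SmoFF it was 0, 3 without the filter on low counts and 0 to 0 with a library left out. In SmoM2 it was 0, 5 without the filter, 2 with DESeq2, 3 with limma voom and 1 with only the groups compared. In Ctnnb1FF it was 2, 5 without the filter, 1 with the replicate number as a block, 1 with wild type replicates 1 to 3 and 0 with wild type replicates 4 and 5 as controls, and 0 to 2 with a library left out. In Gli2FF it was 1, 5 without the filter, 3 with limma voom, 3 with only the groups compared, 0 with wild type replicates 4 and 5, and 0 to 1 with a library left out. In Gli3FF it was 1, 4 without the filter, 3 with DESeq2, 2 with only the groups compared, and 0 to 1 with a library left out. In Gli2FFGli3FF it was 2, 5 without the filter, 1 and 0 with wild type replicates 1 to 3 and 4 and 5, and 0 to 2 with a library left out. In SmoM2 against SmoFF it was 0, 5 without the filter and 1 with DESeq2. An equal number can hide other members. In Ctnnb1FF limma voom also called 2, but both were lower and neither was Fabp4 or Cfd, the members that edgeR called. In Gli2FFGli3FF limma voom called 3, all lower, so Fabp4 was not among them.

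Fabp4 in SmoM2 against wild type, not called with a log2 fold change of 0.51, turned to -0.42 with limma voom, -0.39 with the replicate number as a block and ran from -0.59 without SmoM2 replicate 2 to 1.06 without SmoM2 replicate 1. The cause was not tested. Over all genes the counts called ran from 377 to 4319 after ligation (2326 with all libraries), 19 to 1263 in SmoFF (377), 17 to 1456 in SmoM2 (50), 3050 to 7050 in Ctnnb1FF (4852), 179 to 5732 in Gli2FF (1423), 319 to 2556 in Gli3FF (1085), 2213 to 5958 in Gli2FFGli3FF (4183) and 240 to 1693 in SmoM2 against SmoFF (641). DESeq2 moved the median log2 fold change of all genes by 0.27 after ligation, 0.49 in Ctnnb1FF, 0.18 in Gli3FF, 0.35 in Gli2FFGli3FF and -0.12 in Gli2FF. Same-numbered libraries did not pair, with correlations of -0.26 to 0.17. Groups of 2 and 3 animals limit the precision, and leaving out a library of Gli2FF or Gli3FF leaves 1, taken to vary like the rest.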
